A study of Mus musculus with 24 samples.

Results

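The comparison described here is that of stressed with control wild-type female mice, in the nucleus accumbens, the part of the ventral striatum that serves reward and motivation. Its members were taken from the sample labels as all libraries of wild-type females, 3 control and 3 stressed, which are 6 of the 24 libraries of the series. All were C57BL/6J mice with no virus and no deletion, and the groups differed in stress alone as far as the labels go. The title names a subchronic variable stress, a course of changing stressors, but no source used here gives the mice's age, the stressors, how long they lasted or how long before tissue collection they ended. Each library held mRNA pooled from 4 mice, so n counts pools, and the p-values measure the spread between pools. Stressed and control wild-type males, with 3 libraries each, were sequenced in the same experiment and enter the fit and the test of sex.

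Immediate early genes are switched on within minutes when a neuron fires, because their promoters are held ready for signalling kinases and calcium. Some code for transcription factors (the Fos, Jun, Egr and Nr4a families and Npas4), and others act directly at synapses (Arc, Homer1) or shut the signal down again (the Dusp phosphatases). In the nucleus accumbens most of the neurons are GABAergic medium spiny neurons, of a class that carries the dopamine receptor Drd1 or one that carries Drd2, and immediate early genes are widely used there as a record of recent activity.

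The 6 libraries held 7116123 to 10438442 counts each, with 5.89% to 7.09% of the counts in mitochondrial genes in controls and 4.82% to 6.37% in stressed females. The deposited counts were compared with edgeR's quasi-likelihood test over 15249 genes, with the spread of each gene estimated over all 12 wild-type libraries, and levels are given as CPM, each count divided by its TMM-scaled library size. Markers of the labelled tissue were present in every library: Drd1 stood at 202 to 293 CPM and Drd2 at 171 to 352 CPM. The protocol names dorsal striatum beside nucleus accumbens for the punches. Genes of neighbouring tissue were also present at uneven levels. The summed level of 16 genes of cortical and other excitatory neurons was 290, 349 and 227 CPM in control libraries 1 to 3. In stressed libraries 1 to 3 it was 236, 251 and 241 CPM. Because the tissue was sequenced in bulk, fewer cells of a type and less RNA per cell cannot be told apart.

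Without regard to library numbers, no gene passed an adjusted p of 0.05 (0 of 15249 in either direction, 0% of genes tested). At an unadjusted p below 0.05 there were 256 genes (1.68% of those tested), 114 higher (0.748%) and 142 lower (0.931%) in stressed females. That 1.68% is smaller than the share the threshold itself would let through if no gene differed. DESeq2 called 2 genes, Npas4 and Fos, both lower, and limma-voom called 0, with 247 genes at an unadjusted p below 0.05. Libraries of the same number, such as control 1 and stressed 1, deviated from their group means together in females, so the number was also used as a block. With the block, edgeR called 5 genes, which is 0.0328% of those tested. Npas4, Fos, Arc and Nr4a1 fell and Resp18 rose in stressed females.

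**Figure D1:**
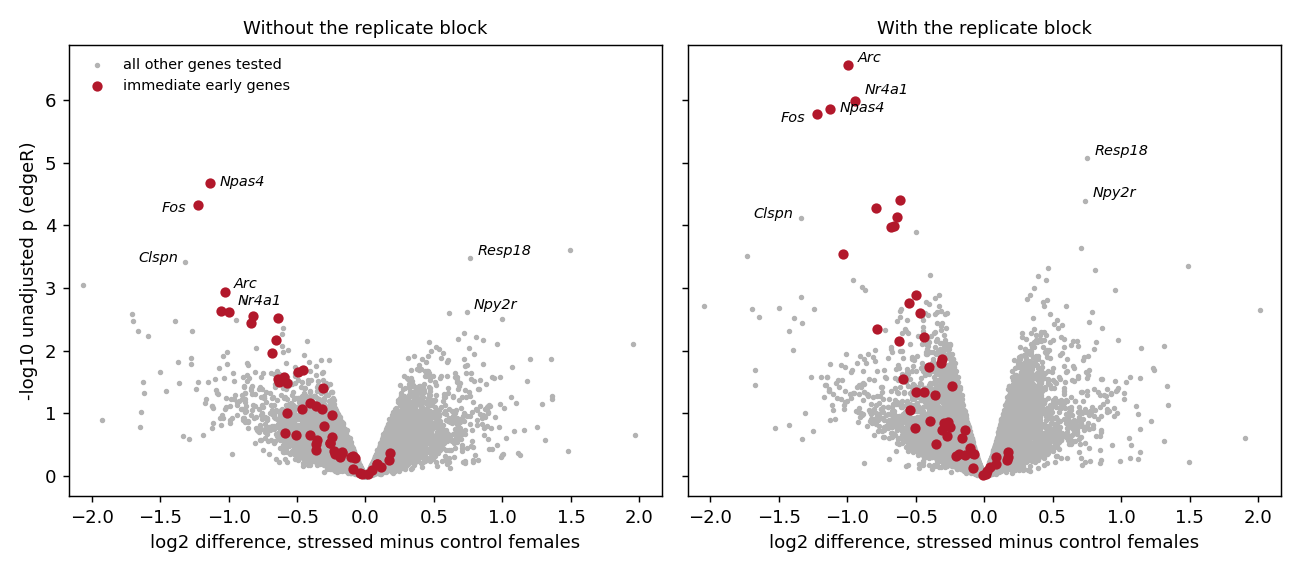
Log2 difference between stressed and control females (x axis) against the negative log10 of the unadjusted edgeR p (y axis) for each of the 15249 genes, without the replicate block on the left and with it on the right. Red points are the 51 immediate early genes tested, most of which lie left of 0, and Arc, Nr4a1, Npas4 and Fos are the 4 highest points on the right-hand plot.

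Npas4 (ENSMUSG00000045903), a transcription factor induced by calcium entry that shapes inhibitory synapses, stood at 31.0, 28.2 and 20.7 CPM in control libraries 1 to 3 and at 11.1, 13.2 and 12 CPM in stressed libraries 1 to 3. Every stressed library lay below every control library, and the stressed libraries lay closer together than the controls. The log2 difference was -1.13 (SE 0.18), with an edgeR adjusted p of 0.316 without the block and 0.00639 with it. In DESeq2 the adjusted p was 0.000175.

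Fos (ENSMUSG00000021250), the AP-1 subunit most used to mark active neurons, stood at 21.3, 16.8 and 16.9 CPM in controls and 7.45, 8.85 and 7.09 CPM in stressed females. The groups did not overlap, and no stressed library came near the lowest control. The log2 difference was -1.23 (SE 0.21), the largest in size of the 4, and the edgeR adjusted p was 0.354 without the block and 0.00639 with it.

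Arc (ENSMUSG00000022602), whose protein moves AMPA receptors out of the synapse, stood at 151, 86.4 and 75.3 CPM in controls and 63.9, 51.0 and 38.5 CPM in stressed females. Library 1 was the highest of its group on both sides, and every stressed library was below its own numbered control. The log2 difference was -1.03 (SE 0.25) without the block and -0.99 (SE 0.12) with it. The edgeR adjusted p was 1 without the block and 0.00417 with it.

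Nr4a1 (ENSMUSG00000023034), an orphan nuclear receptor induced by activity, stood at 168, 81.6 and 79.5 CPM in controls and 67.6, 56.6 and 40.5 CPM in stressed females. As with Arc, library 1 was the highest on each side and the groups did not overlap. The log2 difference with the block was -0.94 (SE 0.12), at an edgeR adjusted p of 0.00639, against -1.0 (SE 0.27) and an adjusted p of 1 without it.

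Resp18 (ENSMUSG00000033061), a protein of the secretory granules of neuroendocrine cells, was the gene that rose. It stood at 21.2, 21.0 and 23.3 CPM in controls and 35.9, 30.0 and 45.8 CPM in stressed females. Controls were nearly level, and stressed libraries were all higher but spread more widely. The log2 difference was 0.77 (SE 0.16), with an edgeR adjusted p of 1 without the block and 0.0258 with it. Gm28902 overlaps Resp18 on the opposite strand, and the sources used here do not say whether reads were counted by strand.

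The calls made with the block depended on which pairs were kept. When the block was kept and 1 numbered pair was left out at a time, a choice added after seeing the data, Arc passed in all 3 fits, with adjusted p from 0.00884 to 0.0277. Npas4 passed only without pair 3 (0.0139, against 0.0721 without pair 1 and 0.0682 without pair 2). Fos and Nr4a1 passed only without pair 2 (0.025 and 0.00292), with 0.0727 and 0.0616 without pair 1 and 0.0579 for both without pair 3. Resp18 passed in none of the 3, at 0.102, 0.0579 and 0.386. With the block in the 6 female libraries alone, Resp18 did not pass either (edgeR adjusted p = 0.143), while Npas4, Fos, Arc and Nr4a1 did. Keeping genes of low count changed the set of genes from which the spread was estimated, as well as the number tested. With the block and genes of low count kept, also added after seeing the data, 37 of 29076 genes passed, 10 higher and 27 lower. Beside the 5 above they included Egr1, Egr2, Egr3, Nr4a3, Fosl2, Junb, Arl4d, Dusp1, Dusp14, Clspn, Nxph3, Scube1, Cck and the cortical genes Slc30a3 and Cplx3 among the lower genes, and Npy2r, Igsf1, AW551984, Frem3 and Baiap3 among the higher ones.

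To show the regions these genes start from, the 250 bases before the RefSeq start (build GRCm38.p6, 5′ to 3′ on the gene's strand) are given for the genes that passed and were matched by symbol, 4 of 5. Capitals mark TGACG or its reverse complement CGTCA, the short core bound by CREB, a factor activated by calcium and cyclic AMP.
Fos, chr12:85473640-85473889, plus strand: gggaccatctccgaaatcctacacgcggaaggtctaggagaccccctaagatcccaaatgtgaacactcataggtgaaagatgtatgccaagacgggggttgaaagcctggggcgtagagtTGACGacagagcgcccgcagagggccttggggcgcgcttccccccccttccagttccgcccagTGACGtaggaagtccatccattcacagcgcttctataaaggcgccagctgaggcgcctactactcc
Npas4, chr19:4989972-4990221, minus strand: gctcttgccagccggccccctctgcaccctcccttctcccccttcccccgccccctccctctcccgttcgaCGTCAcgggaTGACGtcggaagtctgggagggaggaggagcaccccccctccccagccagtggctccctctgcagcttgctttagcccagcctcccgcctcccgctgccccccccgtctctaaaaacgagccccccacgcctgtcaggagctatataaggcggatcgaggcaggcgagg
Nr4a1, chr15:101266596-101266845, plus strand: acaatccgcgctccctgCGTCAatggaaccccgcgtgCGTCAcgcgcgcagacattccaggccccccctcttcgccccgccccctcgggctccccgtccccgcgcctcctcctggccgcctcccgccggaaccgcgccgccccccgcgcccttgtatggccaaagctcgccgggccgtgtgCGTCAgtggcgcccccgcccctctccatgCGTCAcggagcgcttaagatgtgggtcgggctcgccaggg
Resp18, chr1:75278416-75278665, minus strand: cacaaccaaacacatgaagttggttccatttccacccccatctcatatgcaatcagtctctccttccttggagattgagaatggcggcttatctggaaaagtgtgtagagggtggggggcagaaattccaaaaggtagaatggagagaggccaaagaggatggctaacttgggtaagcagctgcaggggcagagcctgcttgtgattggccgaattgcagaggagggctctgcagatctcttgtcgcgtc

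In these letters the core occurred 2 times before Fos, 2 times before Npas4, 4 times before Nr4a1 and 0 times before Resp18. Of all 32851 RefSeq windows of this length, 17.8% held the core and 3.9% held it at least 2 times. Chromosome 18 was left out for the immediate early genes only, and a gene with several windows was counted once for each. Of 48 windows of immediate early genes outside chromosome 18, which covered 39 of the 51 genes tested, 60.4% held the core and 41.7% held it at least 2 times. A single TGACGTCA holds both TGACG and CGTCA and so counted 2 times. It occurred in 10.4% of these windows and in 1.55% of all windows. These matches describe the sequence only, and no binding was measured.

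Like the other gene lists, those of immediate early genes were chosen with earlier results of these data known. The shares set beside them only describe them. Across both lists of immediate early genes, 51 of 54 members passed the filter on low counts. Of these 44 were lower, against 51.3% of all genes tested, and 7 were higher, against 48.7%, with a median log2 difference of -0.36 against -0.01 over all genes tested. With the block, 4 members fell (Npas4, Fos, Arc, Nr4a1), and they were all of the genes that fell, 0.0262% of those tested. With the block 0 members rose, against 0.00656% of genes tested. Without it 0 passed, and 17 were lower at an unadjusted p below 0.05, against 0.931% of genes tested. All 3 stressed libraries lay below all 3 controls for 17 members, against 2.58% of genes tested, and above them for 0, against 2.72%. In each of the 3 numbered pairs 25 members were lower, against 13.6% of genes tested, and none was higher in all 3.

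Among the transcription factors, 18 of 23 tested were lower (median -0.40). The summed level of all 26 on the list was 1288, 826 and 830 CPM in control libraries 1 to 3. It was 685, 652 and 578 CPM in stressed ones, so the groups did not overlap. Egr1, a zinc finger factor induced by growth factors and synaptic input, stood at 485, 265 and 271 CPM in controls and 191, 199 and 182 CPM in stressed females, with a log2 difference of -0.84 (SE 0.24). Its control library 1 stood far above the rest, and without it the difference was -0.49. Egr1 passed neither with the block (edgeR adjusted p = 0.821) nor without it, but it passed when genes of low count were kept (edgeR adjusted p = 0.0329 without the block and 3.46e-09 with it). Its log2 difference with the block hardly moved, from -0.78 to -0.80 with genes of low count kept. The adjusted p thus changed with little change in the size of the difference, and the cause was not tested.

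Several other members of these families were also lower and did not pass over the 15249 genes in edgeR, with the block or without it. Egr2 stood at 14.9, 9.57 and 9.94 CPM in controls and 6.09, 5.73 and 4.73 CPM in stressed females (log2 -1.05, SE 0.28). Nr4a3, a relative of Nr4a1, had a log2 difference of -0.82 (edgeR adjusted p = 0.101 with the block), and Fosl2, an AP-1 partner, one of -0.65 (0.136 with the block). Junb and Jun, AP-1 subunits, were at -0.64 and -0.46, and Fosb, whose truncated product builds up in the accumbens under repeated stimulation, was at -0.40. For Egr2, Nr4a3, Fosl2, Jun and Fosb the libraries of the groups did not overlap, while for Junb they did. With the block in DESeq2, Junb, Nr4a3 and Fosl2 passed (adjusted p = 0.0228, adjusted p = 0.0448 and adjusted p = 0.049). Jund, another AP-1 subunit, was at 0.05 and did not share the direction.

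Among effectors and feedback regulators, 26 of 28 were lower (median -0.27). Of these Arc alone passed over the 15249 genes, with the block. Dusp1, Dusp14 and Dusp6, phosphatases that turn off MAP kinases, had log2 differences of -0.64, -0.60 and -0.31. Sik1, a kinase that restrains CREB co-activators, was at -0.49, Arl4d, a small GTPase, at -0.68, and Gadd45g, a stress protein tied to DNA repair and demethylation, at -0.63. Dusp1 stood at 31.4, 23.4 and 21.7 CPM in controls and 19.2, 14.0 and 16.0 CPM in stressed females. Dusp1 also overlaps other genes on the opposite strand. Homer1, a postsynaptic scaffold, showed no separation: it stood at 145, 173 and 253 CPM in controls and 147, 167 and 194 CPM in stressed females.

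**Figure D2:**
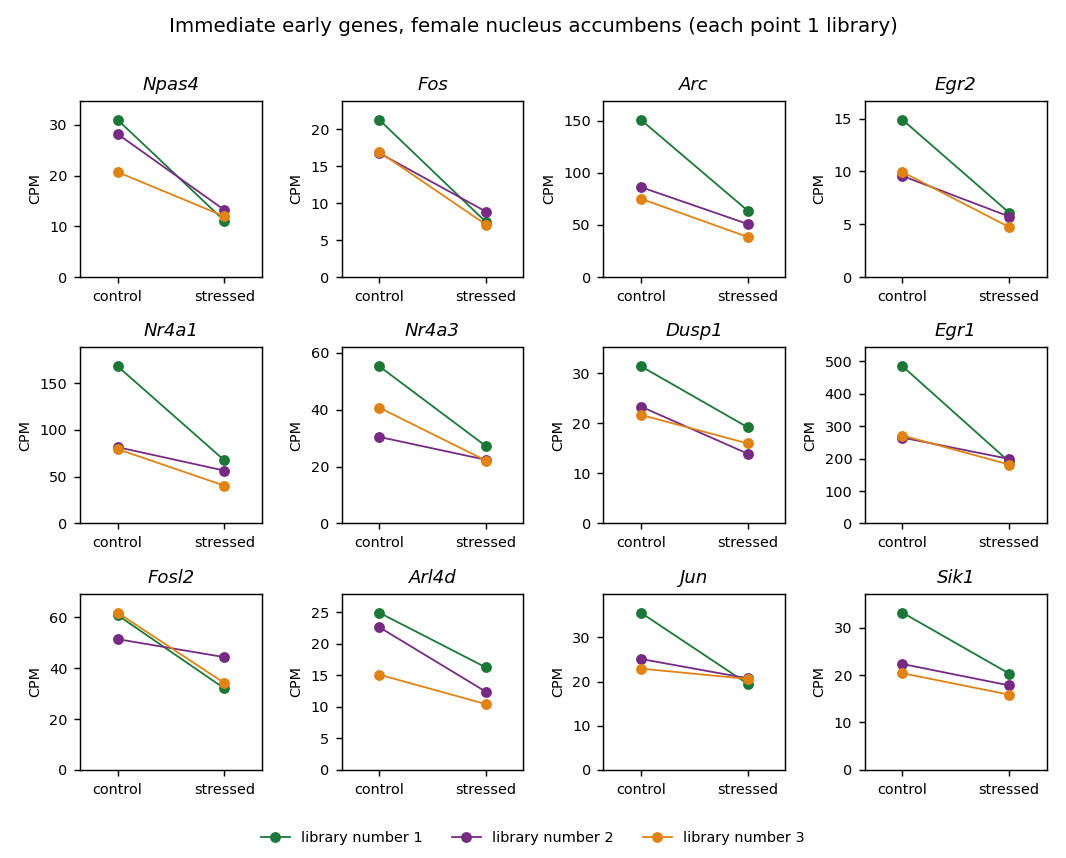
CPM (y axis, from 0) of 12 immediate early genes in control and stressed females, with 1 point for each library and a line joining libraries of the same number. All 3 lines go down in each plot, for example from 20.7 to 12 CPM for the library 3 pair of Npas4, and control library 1 is the highest point in most plots.

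Control library 1 set part of the size of these differences. The median of the transcription factor list was -0.28 without it and -0.48 without control library 2, and Arc went from -1.03 to -0.66 and Nr4a1 from -1.0 to -0.55 when it was left out. Npas4 (-1.01) and Fos (-1.11) changed less. A score of cortical markers, used as a covariate because those genes were higher in control library 2, left Fos at -1.24, Arc at -1.14, Npas4 at -1.01 and Nr4a1 at -1.10. That fit had no block, and no gene passed in it.

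Genes that respond later to activity were lower in 16 of 20 cases (median -0.22, or -0.10 without control library 1), and none passed. Nptx2, which clusters AMPA receptors on inhibitory neurons, had a log2 difference of -0.40, and Rgs4, which shortens G protein signalling, one of -0.24. Crh, corticotropin-releasing hormone, the peptide that starts the hormonal stress response, lay the other way: it stood at 3.04, 4.32 and 2.94 CPM in controls and 4.47, 5.52 and 5.01 CPM in stressed females (log2 0.54, SE 0.22, edgeR adjusted p = 1). Its groups did not overlap, by a narrow margin between 4.32 and 4.47 CPM.

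Glucocorticoid-responsive genes, which corticosterone switches on through its nuclear receptor, were not higher as a group. Of 25 tested, 5 were higher and 20 lower, 0 passed, and the median log2 difference was -0.17. Without control library 1 that median was 0.000436, so its sign rested on that library. Sgk1, a kinase that is an early corticosterone target, stood at 55.6, 53.9 and 53.8 CPM in controls and 66.9, 57.3 and 60.0 CPM in stressed females (log2 0.17, SE 0.12). Fkbp5, a co-chaperone that dampens the receptor, stood at 61.5, 52.7 and 59.0 CPM against 56.6, 57.1 and 55.5 CPM, with overlapping groups. Tsc22d3, an anti-inflammatory target, was at a log2 difference of 0.27.

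After Resp18, the genes of smallest p that were higher in stressed females did not pass over the 15249 genes in edgeR, with or without the block. Several are receptors for peptides. Npy2r, a receptor for neuropeptide Y and peptide YY, stood at 11.4, 15.1 and 15.6 CPM in controls and 20.9, 21.7 and 27.8 CPM in stressed females (log2 0.74, SE 0.20, edgeR adjusted p = 0.0884 with the block, and edgeR adjusted p = 0.000953 with the block and genes of low count kept). Rxfp3, the receptor of relaxin-3, stood at 1.93, 2.16 and 1.72 CPM against 3.25, 3.44 and 3.48 CPM (log2 0.80), and Calcr, the calcitonin receptor, at 10.7, 11 and 11.1 CPM against 17.5, 14.3 and 15.2 CPM (log2 0.51). In all 3 the groups were apart, as the choice of these genes required. Of all genes tested, 415 (2.72%) were higher without overlap. Rxfp3 was near the low end of what was counted.

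Oprl1, the nociceptin receptor, lay in the same direction at 33.0, 40.6 and 34.6 CPM in controls and 50.8, 48.4 and 49.7 CPM in stressed females (log2 0.46, SE 0.16). Peptides and peptide receptors as a list did not lean that way, with 16 of 39 higher, 23 lower and a median of -0.10, which was 0.03 without control library 1 and 0.0040 without control library 3. Sstr3, a somatostatin receptor, was at -0.64, and Cck, cholecystokinin, at -0.86. Among 18 genes of secretory granules and peptide processing, 9 were higher and 9 lower (median 0.0033, and of either sign when 1 library was left out). Baiap3, which helps dense-core vesicles to fuse, stood at 116, 108 and 76.5 CPM in controls and 166, 125 and 124 CPM in stressed females (log2 0.46), and it overlaps Tsr3 on the opposite strand.

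**Figure D3:**
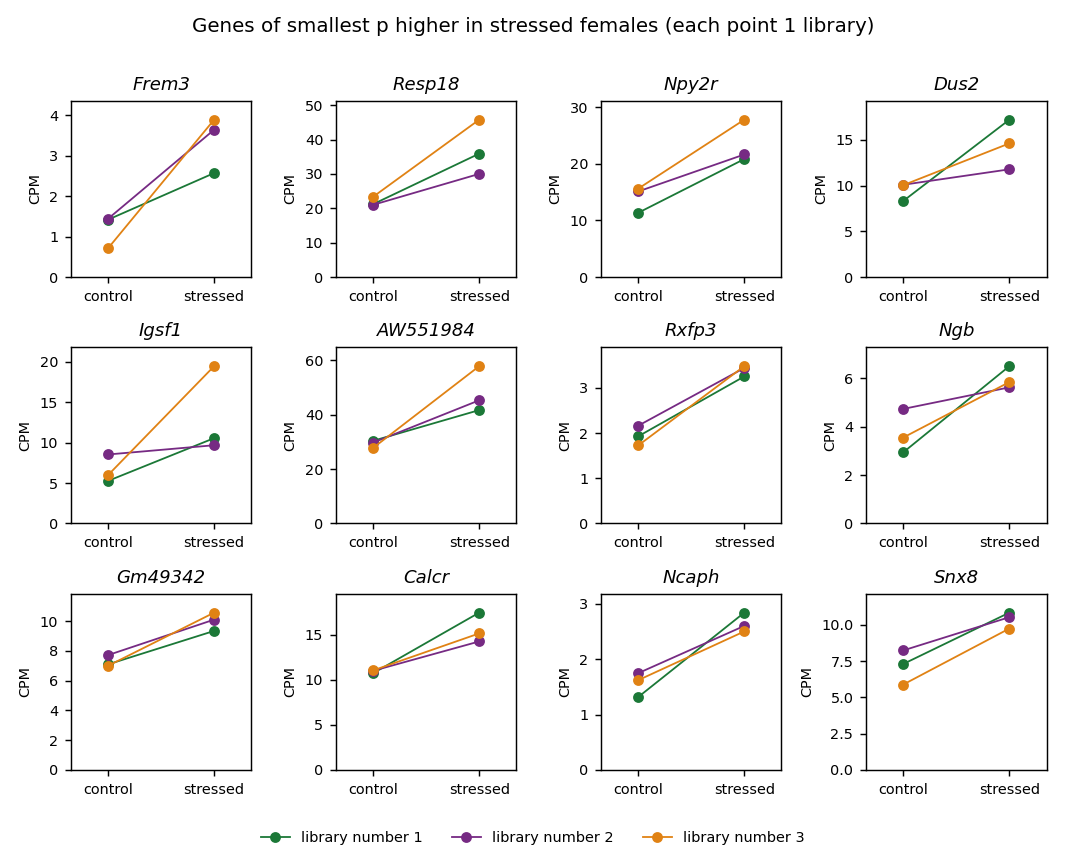
CPM (y axis, from 0) of the 12 genes of smallest unadjusted p among those higher in stressed females with no overlap between groups, 1 point for each library and lines joining libraries of the same number. Because the genes were chosen for groups that do not overlap, every line must go up, as for Npy2r from 15.6 to 27.8 CPM in the library 3 pair. Resp18 is the only one of the 12 that passed over the 15249 genes, with the block. With the block and genes of low count kept, Frem3, Npy2r, Igsf1 and AW551984 passed too.

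The rest of these 12 genes have no common role. Igsf1, an immunoglobulin superfamily protein known from the pituitary, was at a log2 difference of 1.00, with stressed library 3 at 19.5 CPM far above stressed libraries 1 and 2 at 10.6 and 9.69 CPM. Ngb, the oxygen-binding neuroglobin, was at 0.68, Snx8, a sorting nexin, at 0.54, and Ncaph, a condensin subunit, at 0.76. Frem3, an extracellular matrix protein, had a difference of 1.5 on 7 to 35 counts a library. AW551984 was at 0.72. Dus2, a tRNA-modifying enzyme, was at 0.61 and Gm49342 at 0.46, and both share their position with other genes, so their counts are uncertain.

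Markers of septum and hypothalamus, tissues rich in peptides and their receptors, were set beside the higher genes. The summed level of all 18 markers was 974, 743 and 668 CPM in control libraries 1 to 3. It was 982, 859 and 840 CPM in stressed ones, higher in each numbered pair. Of 10 members tested 6 were higher and 4 lower (median 0.04, or -0.02 without control library 3). Baiap3, 1 of the higher genes above, is a member of that list and part of these sums. It stood at 116, 108 and 76.5 CPM in controls and 166, 125 and 124 CPM in stressed females. In the number 1 pair Baiap3 alone rose by more than the whole sum did. The sums without Baiap3 were not compared. Gbx1, a homeobox gene of the basal forebrain, stood at 4.66, 4.01 and 4.06 CPM in controls and 4.20, 6.25 and 12.2 CPM in stressed females. Stressed library 3 was the highest for Gbx1 and, of the 12 higher genes, for Igsf1, Npy2r, Resp18, Frem3, AW551984, Rxfp3 and Gm49342. Stressed library 1 was the highest for the list's summed level (982 CPM), Baiap3 (166 CPM), Calcr, Dus2, Ngb, Snx8 and Ncaph. The part of neighbouring tissue in these genes was not tested.

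Among lower genes outside the immediate early lists, Clspn, an adaptor of the replication checkpoint, stood at 7.09, 8.33 and 6.59 CPM in controls and 1.76, 3.65 and 3.34 CPM in stressed females (log2 -1.32, SE 0.28, edgeR adjusted p = 0.115 with the block). The groups were apart, as the choice of these genes required, on 13 to 81 counts a library, and Clspn overlaps Gm12936 on the opposite strand. It passed only when genes of low count were kept (edgeR adjusted p = 0.0315 over 29076 genes). Of the other 17 genes of replication and proliferation tested, 9 were higher and 8 lower, with Birc5, a survivin needed in mitosis, at -0.69.

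Lef1, a transcription factor that carries Wnt signals in the nucleus, was at -0.89 (SE 0.22), with 7.80, 5.97 and 5.78 CPM in controls and 3.66, 4.17 and 2.64 CPM in stressed females. Its relative Tcf7 was at -0.59, or -0.31 without control library 1. Of 36 Wnt ligands, receptors, antagonists and targets tested, 24 were lower and 12 higher, with a median of -0.06, or 0.0045 without control library 1, and 0 passing. Gja5, a gap junction protein of arteries, was at -0.85, while 19 of 23 endothelial and mural genes were lower (median -0.17, or -0.09 without control library 1 and -0.29 without stressed library 1), among them Pecam1, an endothelial adhesion protein (-0.32), and Tagln, of smooth muscle (-0.38).

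Some of the lower genes varied with cortical markers. Slc17a7, which loads glutamate into the synaptic vesicles of cortical neurons, stood at 41.0, 109 and 29.9 CPM in controls and 9.89, 21.7 and 26.6 CPM in stressed females (log2 -1.62, SE 0.67). Control library 2 was the highest by far, and without it the difference was -0.88. Of the 14 cortical genes tested 10 were lower and 4 higher, with a median of -1.05, or -0.31 without control library 2. The higher ones included Slc17a6 at 0.53, with overlapping groups, and Rprm at 0.35, with groups that did not overlap. Nxph3, a ligand of neurexins, ran alongside with 5.27, 9.57 and 2.84 CPM against 1.76, 2.19 and 2.78 CPM, and its log2 difference of -1.39 was -0.54 with the cortical score as a covariate. Scube1, a secreted protein, went from -0.95 to -0.57 under the same covariate.

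Marker genes of the accumbens' own neurons showed small differences in the bulk tissue that mostly lay below 0. Of 23 genes shared by medium spiny neurons, 22 were lower, against 51.3% of genes tested, 12 of them in each of the 3 pairs, against 13.6%, and 0 passed. Their median was -0.16, or -0.10 without stressed library 3 and -0.24 without stressed library 1. Pde10a, the phosphodiesterase that sets cyclic AMP in these neurons, stood at 1548, 1514 and 1517 CPM in controls and 1303, 1284 and 1211 CPM in stressed females (log2 -0.27, SE 0.10). Rgs9, which speeds the end of dopamine receptor signalling, stood at 505, 483 and 500 CPM against 422, 386 and 411 CPM (log2 -0.29, SE 0.12). Both were apart between groups with little spread within them, but neither passed (edgeR adjusted p = 0.703 with the block for both).

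Markers of the spiny neuron classes gave 0 calls. All 8 D2-class genes tested were lower, 5 of them in each of the 3 pairs, against 13.6% of genes tested. Their median of -0.16 was 0.0077 without control library 1, -0.01 without stressed library 3, -0.31 without control library 3 and -0.35 without stressed library 1. They included Drd2 at -0.22 and Penk, the enkephalin precursor, at -0.28, and both of these lay near 0 or above it without control library 1 (0.0026 and 0.086). Of 10 D1-class genes 4 were higher and 6 lower, with Drd1 at -0.04. Their median of -0.08 was 0.01 without control library 3, 0.02 without stressed library 3, -0.02 without stressed library 2, -0.13 without stressed library 1 and -0.19 without control library 2. Ebf1, a transcription factor of D1-class neurons, was the 1 marker of either class whose groups did not overlap. Its lowest control stood at 13.17 CPM and its highest stressed library at 13.12 CPM. Of all genes tested, 2.58% were lower without overlap. Of 15 striatal interneuron genes tested 6 were higher and 9 lower, with a median of -0.04, or 0.05 without control library 1. Reln, a matrix glycoprotein, was at -0.32, Vip at -0.82 on low counts, and Calb2 at 0.33.

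Synaptic lists had medians whose sign rested on single libraries, and 0 members passed. Glutamate receptor and postsynaptic genes were lower in 30 of 39 cases (median -0.12, or 0.0072 without control library 1), with Grin2b, an NMDA receptor subunit, at -0.25 and Grin3a, an NMDA subunit that lowers calcium entry, at 0.40. Grin3a stood at 43.8, 40.5 and 45.0 CPM in controls and 47.7, 47.6 and 76.0 CPM in stressed females, so stressed library 3 gave most of that difference. Genes of GABA synthesis, transport and reception were higher in 16 of 22 cases (median 0.07, or -0.04 without stressed library 3 and 0.16 without control library 3), and 7 were higher in all 3 pairs, against 14.5% of genes tested. Slc6a11, a GABA transporter of astrocytes, was at 0.37, with 185, 206 and 134 CPM against 206, 231 and 242 CPM.

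Genes of energy production and protein synthesis gave 0 calls over the 15249 genes, with or without the block. With the block and genes of low count kept, the ribosomal gene Rpl37a passed. Of 75 nuclear subunits of oxidative phosphorylation, 62 were higher, against 48.7% of genes tested, and 24 were higher in all 3 pairs, against 14.5%. Their median was 0.12, or 0.02 without stressed library 1. All 12 protein genes of the mitochondrial genome that were tested were lower, but only 1 of them in all 3 pairs, against 13.6% of genes tested. Their median was -0.28, or -0.09 without stressed library 1 and -0.18 without control library 1. Uqcrfs1, the iron-sulfur subunit of complex III, stood at 43.3, 48.5 and 65.5 CPM in controls and 75.2, 54.8 and 73.2 CPM in stressed females. All 13 protein genes of the mitochondrial genome summed to 69430, 54319 and 64987 CPM in controls and 43576, 59076 and 56716 CPM in stressed females. The groups overlapped and the number 2 pair went up. Ribosomal protein genes were higher in 61 of 79 cases (median 0.17), with Rps3 at 0.33. That median was -0.02 without stressed library 1 and 0.03 with the cortical score as a covariate.

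**Figure D4:**
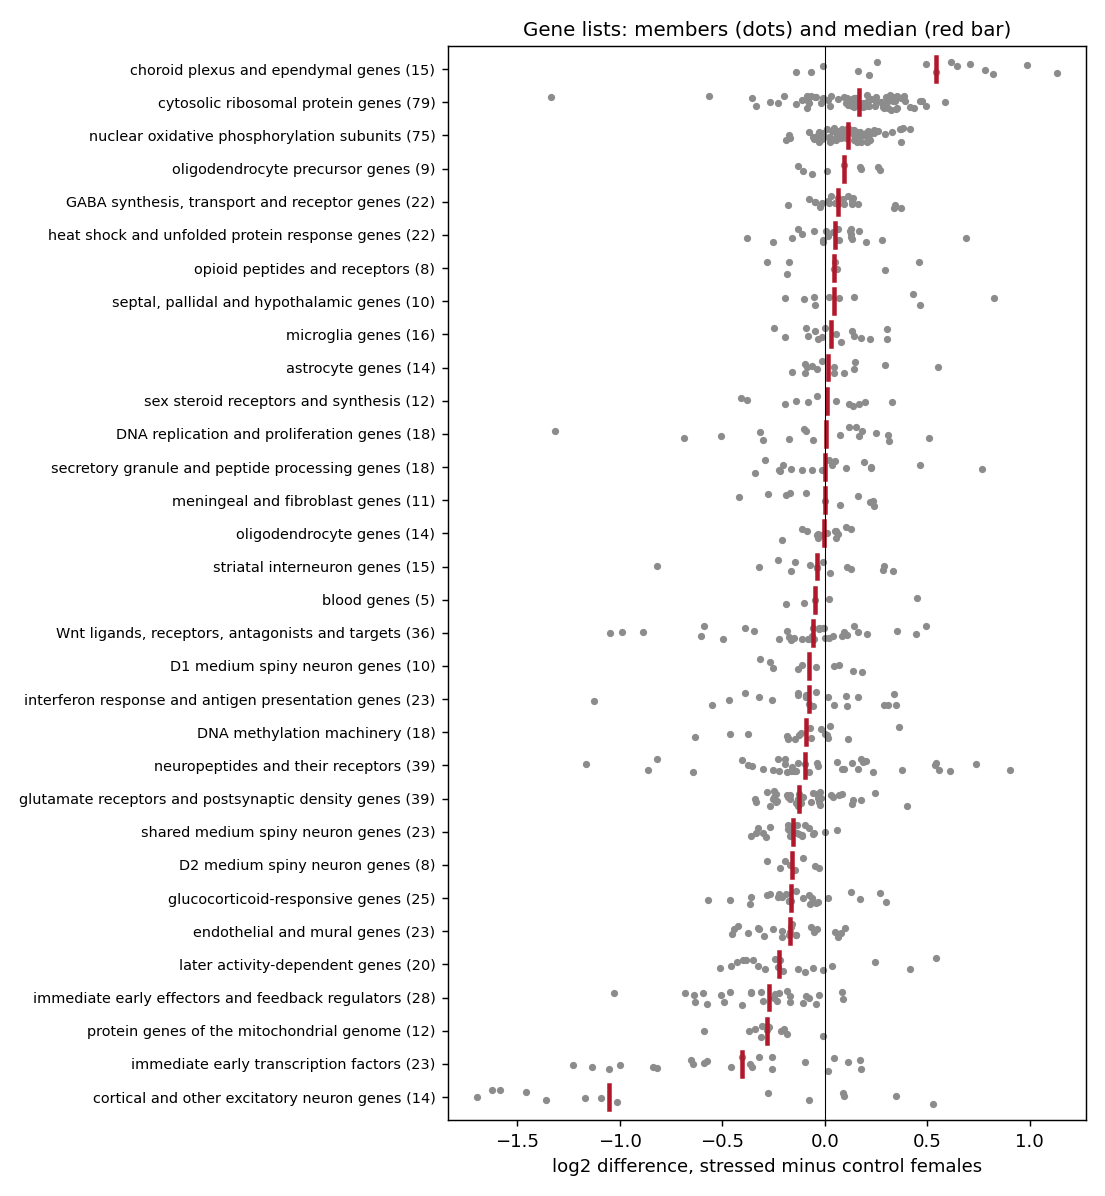
Log2 difference between stressed and control females (x axis) for the members of each gene list (dots) with the list's median (red bar), and the number of genes tested in parentheses. Immediate early transcription factors have a median of -0.40 and cortical genes one of -1.05, while immediate early effectors are at -0.27 and later activity-dependent genes at -0.22.

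DNA methylation genes were of interest because the same series deletes Dnmt3a, a de novo DNA methyltransferase, in other mice. Dnmt3a stood at 176, 191 and 202 CPM in controls and 184, 173 and 184 CPM in stressed females (log2 -0.07, SE 0.11), with overlapping groups. Of 18 genes of methylation and its removal, 13 were lower and 5 higher, and 0 passed. Esr1, the oestrogen receptor, was at 0.33 (SE 0.28) with 1.62 to 3.20 CPM over the 6 libraries.

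Other tissue in the punches varied from library to library. Choroid plexus genes, whose transcripts come from the ventricle lining, summed to 70.7, 617 and 54.4 CPM in controls and 66.5, 503 and 499 CPM in stressed females. They were high in control library 2 and stressed libraries 2 and 3, and their median log2 difference of 0.54 ranged from 0.14 to 1.6 when 1 library was left out. Blood genes were high in library 1 of both groups (67.4 and 70.1 CPM) and between 22.7 and 27.5 CPM in the rest. Astrocyte, microglia and oligodendrocyte genes had medians of 0.02, 0.03 and -0.01, and with 1 library left out these ranged over 0.01 to 0.19, -0.05 to 0.11 and -0.04 to 0.08.

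**Figure D5:**
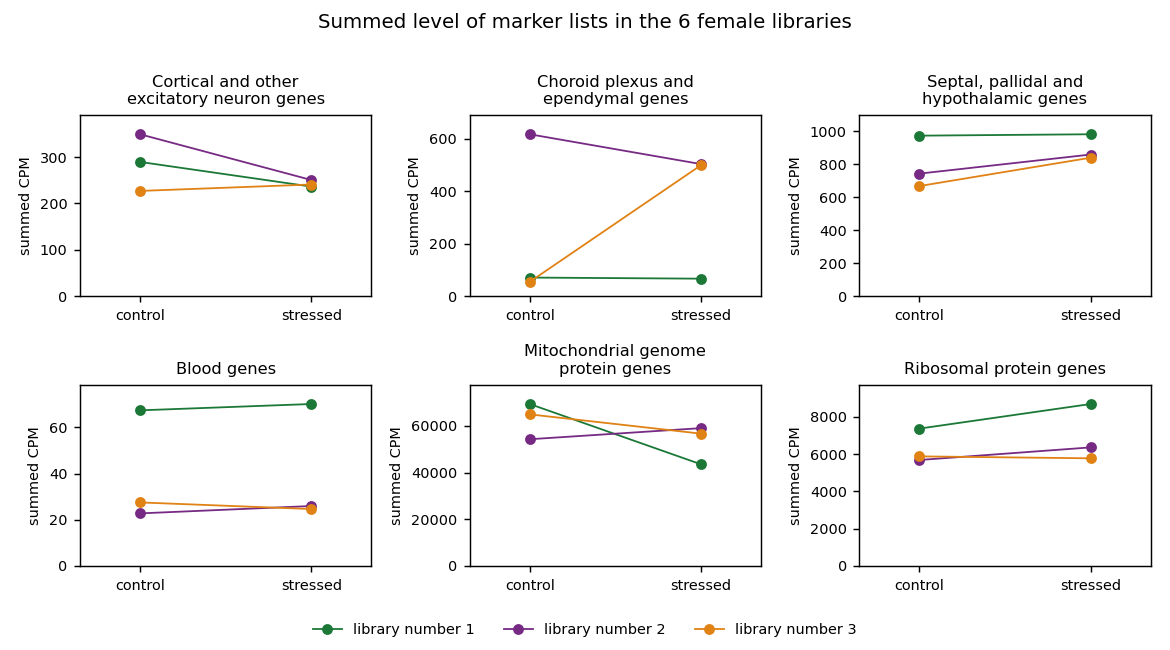
Summed CPM (y axis, from 0) of 6 gene lists in control and stressed females, 1 point for each library and lines joining libraries of the same number. Cortical genes are highest in control library 2 (349 CPM), blood genes are high in library 1 of both groups, and choroid plexus genes are high in 3 of the 6 libraries.

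Stress was tested in males of the same experiment in order to ask which differences were larger in females. No gene passed the test of the difference between the sexes (0 of 15249, with 182, or 1.19%, at an unadjusted p below 0.05, and 0 with DESeq2 and with the block). Here too the share was smaller than the threshold itself would let through if no gene differed. The 5 genes called with the block in females had male log2 differences of -0.86 for Npas4, -1.71 for Fos, -1.18 for Arc, -0.88 for Nr4a1 and 0.61 for Resp18. Of these Fos passed in males without the block (edgeR adjusted p = 0.022), which it did not in females. The female minus male differences were -0.27 (SE 0.25), 0.48 (SE 0.29), 0.15 (SE 0.35), -0.12 (SE 0.37) and 0.16 (SE 0.22) in that order. None of these passed (edgeR adjusted p = 1), which does not show that the sexes respond alike.

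The genes of smallest p in the test of sex did not pass either (edgeR adjusted p = 1). Abi3bp, an extracellular matrix protein, stood at 12.6, 14.0 and 12.4 CPM in control and 7.99, 7.40 and 10.3 CPM in stressed females, against 8.03, 6.73 and 7.24 CPM in control and 7.85, 10.2 and 7.88 CPM in stressed males. The females were lower under stress without overlap, and the males overlapped. Cdhr1, a photoreceptor cadherin, Fam198b, and Mfng, which adds sugars to Notch, had female minus male log2 differences of -0.89, -1.18 and -1.15. In the other direction lay Acadvl, an enzyme of fatty acid oxidation (0.58), Gm12404 (1.54), Slc37a2, a sugar phosphate transporter (1.55), and Sulf1, a heparan sulfatase (0.87), which was at 0.14 in females and -0.74 in males.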

How the data were processed

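Counts per gene were deposited by the authors as whole numbers with no scaling, for 37991 Ensembl IDs, and all 12 wild-type libraries (3 each of control and stressed females and males) were used. The submitters' processing notes name Bowtie2 2.1.0, TopHat2 2.0.9, HTSeq 0.6.0 and the builds NCBIM37 and mm9, with no roles or settings, so strand use in counting is not known. Symbols were matched by Ensembl ID to a later annotation, 32919 with a symbol and 5072 without. Promoter windows came from RefSeq (GRCm38.p6) by symbol, and no coordinate was converted between builds.

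In R 4.3.3 with edgeR 4.0.16, genes passing filterByExpr (15249) were scaled with TMM and fitted by robust quasi-likelihood with 4 group means, 8 residual degrees of freedom. Stressed minus control females and its difference from males were tested, with Benjamini-Hochberg adjustment over all genes, called at 0.05. Log2 differences carry an SE derived from the F statistic, and a list's members were counted with no set test. Counts ranged from 7116123 to 12145551 per library, which sets the precision of low genes.

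The labels give libraries numbers 1 to 3 in each group, without saying what a number marks. Deviations from group means, across genes, correlated at 0.334 to 0.577 between same-numbered females and -0.477 to 0.0743 between others, while male same-number correlations were 0.0869 to 0.316. All 3 female pairs exceeded 0.1, so the number was taken to pair the females from the data, the same counts that were then tested. The replicate block (number within sex, 4 residual degrees of freedom) was fitted beside the design without it. It was applied to males as well, although 1 male pair, at 0.0869, lay below 0.1.

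Named genes were up to 12 per direction (called, then smallest p without overlap, mean log2 CPM of at least 1), the immediate early genes tested, up to 4 members of smallest p per described list, the 4 per direction of smallest p for sex, genes called by an alternative, and a fixed set that includes Crh, Fkbp5, Dnmt3a and Drd1. The comparison, the members and the 32 gene lists were chosen with earlier results of these data known. The scripts were tested on simulated data. Alternatives were DESeq2 1.42.0, limma-voom (limma 3.58.1), DESeq2 size factors, other filters, a cortical score, thinning, females alone and leaving out each library.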

Additional observations from a re-analysis of the deposited data

How the results depend on the processing

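The count of called genes was 0 without the block and 5 with the replicate block. It was also 0 with limma-voom, DESeq2 size factors, the stricter filter, the cortical score, thinning and the 6 female libraries alone, 2 with DESeq2, 5 without the filter on low counts and 4 in the female libraries with the block. Leaving out 1 library gave 0 to 1, and the 1 was Npas4 without control female library 3. Of alternatives added after seeing the data, the block gave 9 with DESeq2, 37 without the filter, 5 with DESeq2 size factors and 7 thinned, and 1, 4 and 2 without pair 1, 2 and 3. Genes at an unadjusted p below 0.05 numbered 256, against 903 with the block, 491 without the filter, 134 in the female libraries and 852 there with the block, and 223 to 592 when 1 library was left out (592 without control female library 3, 400 without control female library 2). With the block they numbered 402 with DESeq2, 1310 without the filter, 902 with DESeq2 size factors, 873 thinned, and 509, 1011 and 964 without pair 1, 2 and 3. The test of sex called 0 genes except 21 with the block and no filter and 1 with the block without pair 2. The cause of these moves was not tested. List medians that changed sign with 1 library left out ranged from -0.022 to 0.29 for ribosomal proteins, -0.045 to 0.16 for GABA, -0.12 to 0.0072 for glutamate, -0.35 to 0.0077 for D2, -0.19 to 0.019 for D1, -0.099 to 0.026 for peptide and -0.19 to 0.00044 for glucocorticoid genes, and those of the Wnt, interneuron, septal, secretory granule, opioid, replication, microglia, oligodendrocyte and other lists with a median near 0 also changed sign. Single genes also did. Leaving out 1 library gave -0.097 to 0.013 for Fkbp5 (positive without control female library 1), -0.14 to 0.15 for Drd1 (0.15 without control female library 3, 0.028 without stressed female library 2), -0.41 to 0.0026 for Drd2 and -0.45 to 0.086 for Penk (both positive without control female library 1), and -0.028 to 0.55 for Gabre (negative without stressed female library 2). With the block, Fkbp5 was 0.0068 without pair 1 and 0.0053 without pair 3, Drd1 0.15 without pair 3, Gabre -0.0028 without pair 2 and Atp5e -0.0085 without pair 1. With 3 pools a side and 7116123 to 10438442 counts, genes of a few CPM have wide errors, and a gene that did not pass was not shown to be level.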
